A study of Mus musculus with 8 samples.

Results

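The epithelial sodium channel and the serine proteases known to cleave and activate it were followed in mouse collecting duct cells given aldosterone. The set held 7 genes: the channel subunits Scnn1a, Scnn1b and Scnn1g, and the proteases Prss8, St14, Furin and Tmprss2. Every probe annotated to one of these symbols was taken, which gave 1 probe per gene and 7 of the 16361 probes on the array. All 7 had a value on all 8 arrays and were among the 15078 features tested, a feature being a named gene or an unnamed probe.

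The cells were mpkCCDc14, an immortalised line from the cortical collecting duct of a transgenic mouse, in which expression of a viral large T antigen keeps the cells dividing. Cells received 1 µM aldosterone for 6 h or for 1 h, and on each array they were set against cells given ethanol, the vehicle, for the same time. All cells were grown to a tight epithelium on collagen-coated permeable supports and were moved to serum cleared of steroids before treatment, so neither arm carried dexamethasone. There were 4 arrays at 6 h and 4 at 1 h. Replicates were numbered here in sample order, so the same number at 6 h and at 1 h does not mark a pair. The labels do not say whether the arrays of a time are separate cultures. The p-values below therefore rest on spread from array to array, which may be technical. cDNA of aldosterone-treated cells always carried Cy5 and cDNA of vehicle-treated cells always carried Cy3. A dye effect on a probe and an effect of aldosterone therefore cannot be told apart at either time, whereas a dye effect that is the same at both times drops out of the 6 h minus 1 h difference.

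The channel is built from an alpha, a beta and a gamma subunit, encoded by Scnn1a, Scnn1b and Scnn1g. It sits in the apical membrane of principal cells and lets sodium enter from the urine, the step that limits sodium uptake in the aldosterone-sensitive distal nephron. Aldosterone acts through the mineralocorticoid receptor and, at high doses, also through the glucocorticoid receptor. Serine proteases raise the channel's open probability by cutting inhibitory stretches out of the extracellular loops of the alpha and gamma subunits: furin does so in the secretory pathway, prostasin (Prss8) at the cell surface, and matriptase (St14) activates prostasin. Tmprss2, a transmembrane serine protease, can also activate the channel in expression systems.

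The values are log2 ratios of aldosterone over vehicle, in which 1 means a doubling and 0 no difference. They hold no level, so neither the abundance of the members nor the identity of the cells could be checked from marker levels. Per array, the standard deviation of the ratios over all probes lay between 0.31 and 0.494 at 6 h and between 0.352 and 0.589 at 1 h, and replicate 4 had the widest spread at each time. Ratios of bulk RNA do not separate a change in the number of cells of a type from a change in RNA per cell. Below, an average over 4 arrays is given with limma's moderated standard error (SE), where n is the number of arrays averaged. This SE pools the variance of both times, so each gene named has the same SE at 6 h and at 1 h. It is not the standard error of the 4 arrays alone. A gene is said to have risen or fallen where limma's moderated test gave an adjusted p under 0.05. The adjustment was that of Benjamini-Hochberg over all 15078 features.

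At 6 h, Scnn1a rose and was the single member of 7 that passed the test, while the other 6 did not. At 1 h, Scnn1a and St14 rose, Scnn1g fell and 4 members did not pass. The share of all features that passed was 17.8% at 6 h and 41% at 1 h. By direction, 7.13% of features were above vehicle and 10.7% below it at 6 h, and 20% were above and 21% below at 1 h. The median ratio of the 7 members was -0.07 at 6 h and 0.03 at 1 h, against 0 over all features at both times.

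**Figure D1:**
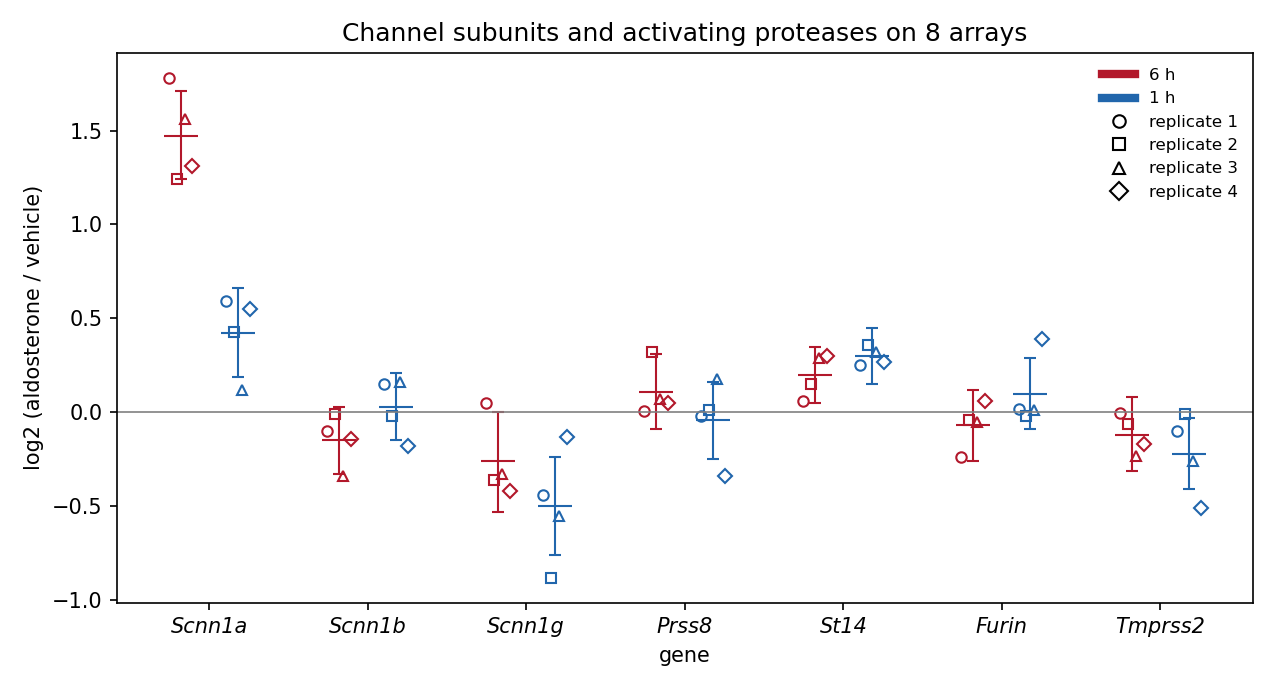
Log2 ratio of aldosterone over vehicle for each of the 7 members on every array, at 6 h and at 1 h. Points are arrays, horizontal lines the mean and bars its 95% confidence interval; Scnn1a at 6 h lies between 1.24 and 1.78, above all its 1 h arrays and above every other member.

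Scnn1a, the alpha subunit that is required for the channel to reach the surface as a working pore, had log2 ratios of 1.78, 1.24, 1.56 and 1.31 on the 6 h arrays, against 0.59, 0.43, 0.12 and 0.55 on the 1 h arrays. All 8 arrays were above 0, and the lowest 6 h array was above the highest 1 h array. At 6 h the mean was 1.47 ± 0.11 (SE, n = 4), a 2.78-fold ratio (95% confidence interval 2.35 to 3.27, limma adjusted p = 0.000201), which placed it 13 from the top of the 15078 features. At 1 h the mean was 0.42 ± 0.11 (SE, n = 4), a 1.34-fold ratio (1.14 to 1.58, limma adjusted p = 0.0124), above 91.1% of features. The call at 1 h was lost when replicate 1 was left out (0.37, limma adjusted p = 0.0503), when arrays were scaled to one spread (0.37, 0.126) and after quantile normalization (0.40, 0.103). The call at 6 h held under both of these scalings and with each 6 h array left out (means of 1.37 to 1.55).

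The difference between the times was tested by itself. Scnn1a was 1.05 ± 0.15 higher at 6 h than at 1 h on the log2 scale (95% confidence interval 0.71 to 1.39), a 2.07-fold difference of ratios. Its unadjusted p was 4.24e-05 and its limma adjusted p over all features 0.0798, so the difference did not pass. Of 15078 features 4 passed this test (0.0265%), 0.0199% higher and 0.00663% lower at 6 h, and 0 of the 7 members did. Scnn1a ranked 25 from the top in it. Genes whose 6 h arrays all lay above their 1 h arrays made up 5.03% of features. Among 9 other settings the difference passed in 2, with arrays weighted by their quality (1.13, limma adjusted p = 0.0339) and by SAM. These called 0.0531% and 0.822% of all features. The difference did not pass after quantile normalization (1.15, limma adjusted p = 0.105). Nor did it pass with any one array left out (0.95 to 1.13, limma adjusted p 0.0992 to 0.269).

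Scnn1b, the beta subunit, had log2 ratios of -0.10, -0.01, -0.34 and -0.14 on the 6 h arrays, against 0.15, -0.02, 0.16 and -0.18 on the 1 h arrays. The 6 h arrays were all below 0, the 1 h arrays lay on both sides of it, and the times overlapped. The mean was -0.15 ± 0.08 at 6 h (SE, n = 4, limma adjusted p = 0.225) and 0.03 ± 0.08 at 1 h (0.805). The 95% confidence intervals, -0.33 to 0.03 at 6 h and -0.15 to 0.21 at 1 h, bound the change at either time well under that of Scnn1a at 6 h.

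Scnn1g, the gamma subunit and a main target of prostasin, had log2 ratios of 0.05, -0.36, -0.33 and -0.42 on the 6 h arrays, against -0.44, -0.88, -0.55 and -0.13 on the 1 h arrays. All 1 h arrays and 3 of the 4 arrays at 6 h were below 0, and the times overlapped. At 6 h the mean of -0.26 ± 0.12 (SE, n = 4) did not pass (0.832-fold, limma adjusted p = 0.144). At 1 h Scnn1g fell, with a mean of -0.50 ± 0.12 (SE, n = 4), a ratio of 0.707 (95% confidence interval 0.589 to 0.849, limma adjusted p = 0.00962). This call held with each 1 h array left out, at means between -0.62 and -0.37. The 6 h minus 1 h difference was 0.24 ± 0.17 (limma adjusted p = 0.48).

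Scnn1g and Scnn1b are close neighbours on chromosome 7, with the lncRNA gene Gm36848 between them, whereas Scnn1a lies on chromosome 6. The bases that precede the start of the neighbouring pair are shown as a description. The sequences are RefSeq's, build GRCm38.p6, plus strand, and stop before the annotated gene.
Scnn1g, chr7:121734229-121734419: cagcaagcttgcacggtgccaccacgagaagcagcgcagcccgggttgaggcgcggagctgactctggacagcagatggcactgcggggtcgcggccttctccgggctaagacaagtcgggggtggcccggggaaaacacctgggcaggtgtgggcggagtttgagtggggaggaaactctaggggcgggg
Scnn1b, chr7:121864788-121865037: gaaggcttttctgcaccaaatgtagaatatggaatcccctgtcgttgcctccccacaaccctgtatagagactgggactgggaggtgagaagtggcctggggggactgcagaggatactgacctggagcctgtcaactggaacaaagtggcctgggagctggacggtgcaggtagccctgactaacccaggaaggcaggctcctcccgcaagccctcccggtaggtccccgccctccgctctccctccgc
The steroid receptor half-site AGAACA was searched on both strands (TGTTCT on the other) in 300-base windows, 250 bases before to 50 after each start. It was in 6233 of 32851 promoters, 19%, and in 0 of the 5 windows of Scnn1b, Scnn1g, Furin and Tmprss2, of which Furin has 2. Its inverted repeat, with 3 bases between the 2 copies, was in 3 of all windows (0.00913%) and in 0 of these 5. These windows are short, and at a share of 19% over all promoters, 0 of 5 is no result about these genes. Scnn1a, Prss8 and St14 had no promoter in the set and were not searched, so Scnn1a cannot be compared with the other subunits. Whether the half-site or its inverted repeat bears on the ratios was not tested.

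The subunits were also compared within each array, where a gene's ratio was subtracted from another's on the same slide. Scnn1a minus Scnn1b was 1.88, 1.25, 1.90 and 1.45 on the 6 h arrays, against 0.44, 0.45, -0.04 and 0.73 on the 1 h arrays. Scnn1a minus Scnn1g was 1.73, 1.60, 1.89 and 1.73 on the 6 h arrays, against 1.03, 1.31, 0.67 and 0.68 on the 1 h arrays. In both pairs every 6 h array was above every 1 h array. Among single features 5.03% lay higher on every 6 h array than on every 1 h array, and Scnn1a was one of these. How many pairs of genes separate in this way was not counted. Both pairs hold Scnn1a, so they are not separate results.

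The alpha to beta difference averaged 1.62 ± 0.32 at 6 h and 0.39 ± 0.32 at 1 h (SD, n = 4 each), 1.23 more at 6 h. The alpha to gamma difference averaged 1.74 ± 0.12 at 6 h and 0.92 ± 0.31 at 1 h (SD, n = 4 each), 0.81 more at 6 h. Each gave p = 0.0286 in an exact two-sided permutation test over arrays, the smallest that 70 splits allow, and 0.0429 after adjustment over the 3 pairs. Beta minus gamma averaged 0.12 ± 0.24 at 6 h and 0.53 ± 0.40 at 1 h, a difference of -0.41 (exact permutation p = 0.143, adjusted 0.143, n = 4 each). It was -0.60 without 1 h replicate 4 (exact permutation test, adjusted p = 0.0286). That array, at -0.05, was the only 1 h array within the range of the 6 h arrays, so dropping it widens the difference. Fewer than 70 splits remain once any array is dropped. A p from such a reduced set, here or below, therefore cannot be set beside those of the full test. A dye effect that is the same at both times does not contribute to these differences. The adjusted p of both pairs with Scnn1a was 0.0857 after quantile normalization and whenever a 6 h array was left out, with differences of 0.76 to 0.86 for alpha and gamma and 1.13 to 1.35 for alpha and beta without a 6 h array (exact permutation test).

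**Figure D2:**
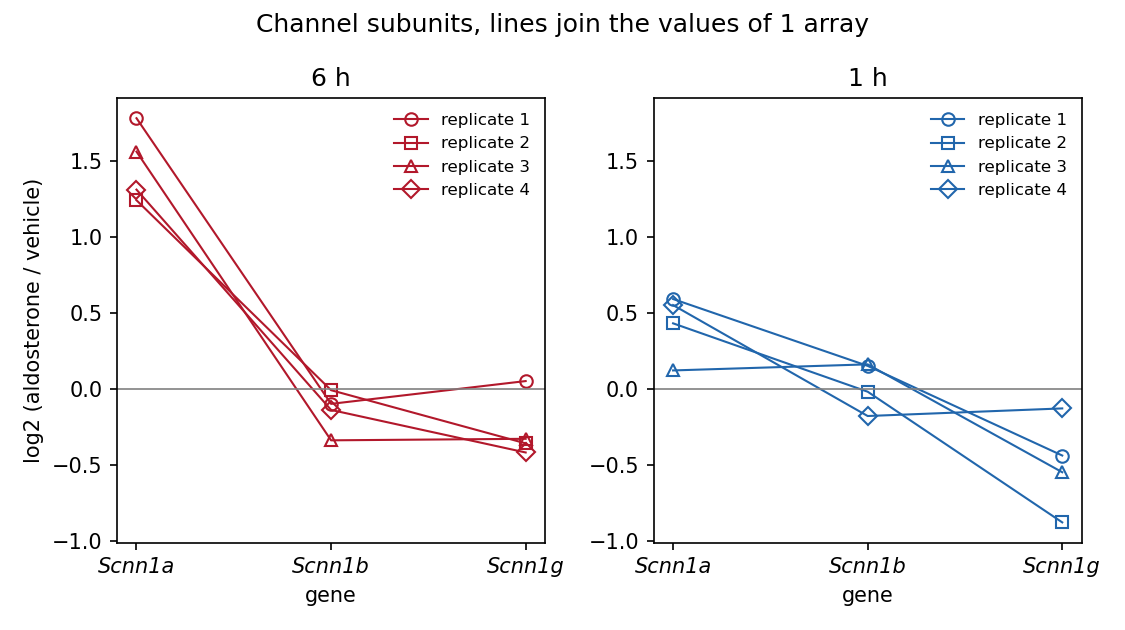
Log2 ratio of aldosterone over vehicle for Scnn1a, Scnn1b and Scnn1g, at 6 h and at 1 h, with a line joining the values of 1 array. The lines drop from Scnn1a to Scnn1b by 1.25 to 1.90 on the 6 h arrays, against -0.04 to 0.73 on the 1 h arrays.

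St14, matriptase, had log2 ratios of 0.06, 0.15, 0.29 and 0.30 on the 6 h arrays, against 0.25, 0.36, 0.32 and 0.27 on the 1 h arrays. All 8 arrays were above 0 and the times overlapped. At 1 h St14 rose by a small and even amount, 0.30 ± 0.07 (SE, n = 4), a 1.23-fold ratio (95% confidence interval 1.11 to 1.36, limma adjusted p = 0.00691), and the call held with each 1 h array left out. At 6 h the mean of 0.20 ± 0.07 (SE, n = 4), 1.15-fold, did not pass (limma adjusted p = 0.0613). It passed with arrays scaled to one spread (0.23, limma adjusted p = 0.0291), after quantile normalization, with array weights and by SAM, the test the labels name. In those settings 33.2%, 32.2%, 26.8% and 35% of all features passed at 6 h, against 17.8% in the main fit. With any one 6 h array left out St14 did not pass at 6 h (limma adjusted p 0.0629 to 0.214). The times did not differ by the test (-0.10 ± 0.09, limma adjusted p = 0.586).

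Prss8, prostasin, had log2 ratios of 0.01, 0.32, 0.07 and 0.05 on the 6 h arrays, against -0.02, 0.01, 0.18 and -0.34 on the 1 h arrays. Replicate 2 stood above the other 6 h arrays, and the times overlapped. The mean was 0.11 ± 0.09 at 6 h (SE, n = 4, limma adjusted p = 0.407) and -0.04 ± 0.09 at 1 h (0.729). The 95% confidence interval at 6 h reached from -0.09 to 0.31.

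Furin, the proprotein convertase, had log2 ratios of -0.24, -0.04, -0.05 and 0.06 on the 6 h arrays, against 0.02, -0.02, 0.01 and 0.39 on the 1 h arrays. Apart from 1 h replicate 4 and 6 h replicate 1, every array was close to 0. The mean was -0.07 ± 0.08 at 6 h (SE, n = 4, limma adjusted p = 0.603) and 0.10 ± 0.08 at 1 h (0.361).

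Tmprss2 had log2 ratios of -0.01, -0.06, -0.23 and -0.17 on the 6 h arrays, against -0.10, -0.01, -0.26 and -0.51 on the 1 h arrays. All 8 arrays were below 0, by little at replicates 1 and 2 of each time. The mean was -0.12 ± 0.09 at 6 h (SE, n = 4, limma adjusted p = 0.369) and -0.22 ± 0.09 at 1 h (0.0672), where it did not pass. Leaving out a 1 h array gave means from -0.29 without replicate 2, which passed (limma adjusted p = 0.0447), to -0.12 without replicate 4, which did not (0.239). SAM called Tmprss2 at 1 h (adjusted p = 0.0479), as it did 54.1% of all features. Over the 4 proteases, 0 passed at 6 h and 1 passed at 1 h. At an unadjusted p under 0.05 in limma, 1 of them was above vehicle at 6 h, and SAM called St14 there (adjusted p = 0.0341). The share of all features called by SAM at 6 h was 35%.

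**Figure D3:**
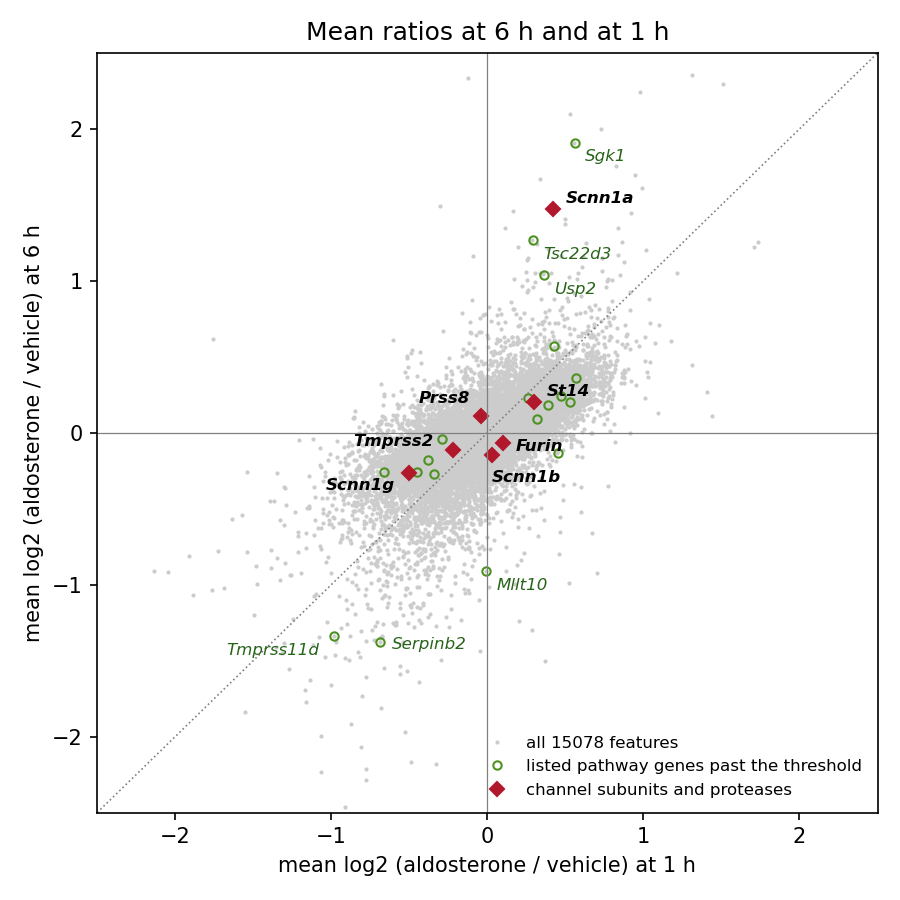
Mean log2 ratio at 6 h against that at 1 h for all 15078 features (grey, of which 6 lie outside the axes), with the 7 members named. Circles mark the network genes that passed at either time, up to 6 of each list by smallest p. Others that passed, such as Pcsk6 and Tmprss3, have no circle. Scnn1a (1.47 at 6 h, 0.42 at 1 h) lies far from the other members, which sit between -0.50 and 0.30 on both axes.

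Pearson's r between members over the 8 arrays ranged from -0.85 (Furin and Tmprss2) to 0.60 (Scnn1a and Scnn1g). Furin's highest ratio (0.39) and Tmprss2's lowest (-0.51) were both on 1 h replicate 4, and r without that array was not computed. Scnn1g and St14 had -0.77, Scnn1a and St14 had -0.65, Prss8 and Furin had -0.65, and Scnn1a and Scnn1b had -0.64. Prss8 and Tmprss2 had 0.59, and the remaining pairs lay between -0.52 and 0.47. The arrays share their hybridisation and depend on the 6 h and 1 h groups, so these are descriptions. Among 12535 named genes, those most like Scnn1a over the 8 arrays were Clint1 (r = 0.993, mean log2 ratio 0.72 at 6 h and 0.40 at 1 h), Arg2 (r = 0.971, 0.62 and 0.00) and Boc (r = 0.964, 0.03 and -0.17). Likeness here is of the shape over arrays, since Boc's ratios were near 0 at 6 h.

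For Scnn1b the most alike genes were Serpini1 (r = 0.958), Tkfc (0.929) and Gatd3a (0.922), and for Scnn1g Rbmx (0.953), Ptgir (0.948) and Enc1 (0.939). For Prss8 they were Btc (r = 0.996), Asb8 (0.959) and Dhrs7b (0.957), and for St14 Emc9 (0.958), Adgrf4 (0.923) and Galnt11 (0.917). For Furin they were Cox8a (r = 0.999), Rgl3 (0.992) and Ost4 (0.992), and for Tmprss2 Usp21 (0.976), Nr1d2 (0.976) and Lrrfip1 (0.974). Furin's ratio on 1 h replicate 4 (0.39) stood apart from its others, and likeness without that array was not computed. No member was among the 3 genes most like another.

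Around the 7 members, 88 genes of the channel's wider protease and regulatory network were listed, of which 59 were measured. At 6 h 6 rose, 4 fell and 49 did not pass (16.9% of those measured, against 17.8% of all features). At 1 h 10 rose, 9 fell and 40 did not pass (32.2%, against 41%). For 6 h minus 1 h, 0 passed in limma, 12 had an unadjusted p under 0.05 (7 higher and 5 lower at 6 h), and SAM called 1. SAM called 0.822% of all features for this difference, and the share of all features at that unadjusted p was not counted. The limma shares at 6 h and at 1 h are near or below the background, so the counts are no result about the network as a whole.

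Among 18 other membrane serine proteases and proprotein convertases measured of 27 listed, 2 rose, 2 fell and 14 did not pass at 6 h, and 4 rose, 6 fell and 8 did not pass at 1 h. Prss30, a membrane-anchored tryptase-like protease, rose at both times, by 0.57 ± 0.12 at 6 h (SE, n = 4, limma adjusted p = 0.014) and 0.43 ± 0.12 at 1 h (0.0197). Tmprss11d, an airway trypsin-like protease, fell at 6 h (-1.34 ± 0.36, limma adjusted p = 0.0312) with arrays at -0.18, -2.41, -1.01 and -1.75, against -0.09, -0.80, -0.94 and -2.09 at 1 h (-0.98 ± 0.36, 0.0509). Its arrays spread more widely than those of any member, and the 6 h call was lost without replicate 2, 3 or 4 (limma adjusted p 0.0667 to 0.121). All 8 arrays of Prss30 were above 0. At 6 h without replicate 1 or 3, and at 1 h without replicate 1, 2 or 4, Prss30 did not pass (limma adjusted p 0.0502 to 0.0696). Its 1 h mean stayed between 0.38 and 0.48 with an array left out. Leaving out an array of a time lowered the share of all features called to 7.29% to 11.6% at 6 h and 28.7% to 34.6% at 1 h. The other 2 genes called at 6 h were Pcsk6, a proprotein convertase, at 0.34 ± 0.10 (limma adjusted p = 0.0374) and Tmprss3, a protease that can activate the channel in expression systems, at -1.02 ± 0.29 (0.0385). At 1 h these had 0.35 ± 0.10 (0.0181) and -0.83 ± 0.29 (0.0449). Pcsk6 lost its 6 h call without any one of the arrays (0.0539 to 0.127) and its 1 h call without replicate 2 or 4. Tmprss3 lost its 6 h call without replicate 1 or 3 (0.062 and 0.076) and its 1 h call without any one array (0.0755 to 0.141).

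At 1 h Mbtps1, the site-1 protease that processes membrane-bound transcription factors, rose (0.39 ± 0.06, SE, n = 4, limma adjusted p = 0.00221) and had 0.18 ± 0.06 at 6 h (0.0733). Prss41, a membrane-anchored serine protease, fell at 1 h (-0.66 ± 0.09, limma adjusted p = 0.00144) and had -0.26 ± 0.09 at 6 h (0.0794). Pcsk1, the convertase of neuroendocrine granules, also fell at 1 h (-0.45 ± 0.10, limma adjusted p = 0.00723) and had -0.26 ± 0.10 at 6 h (0.0971). Tmprss4, which can activate the channel in expression systems, fell at 1 h (-0.29 ± 0.07, limma adjusted p = 0.0111), with -0.04 ± 0.07 at 6 h (0.758). In the acid-sensing branch of the channel family, Asic2 fell at 1 h (-0.38 ± 0.08, limma adjusted p = 0.0073) and had -0.18 ± 0.08 at 6 h (0.16). It was 1 of 2 measured of 5 listed.

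Of 12 secreted and lysosomal proteases measured of 14 listed, 0 passed at 6 h in limma (6 at an unadjusted p under 0.05, and 6 by SAM), and 1 rose at 1 h. SAM called 35% of all features at 6 h, and the share of all features at that unadjusted p was not counted. The gene that rose at 1 h was Plat, tissue plasminogen activator. Its log2 ratios were -0.10, 0.01, -0.06 and -0.38 on the 6 h arrays, against 0.20, 0.59, 0.49 and 0.51 on the 1 h arrays. The times did not overlap: every 6 h array was below every 1 h array. Plat averaged -0.13 ± 0.09 at 6 h (SE, n = 4, limma adjusted p = 0.303) and 0.45 ± 0.09 at 1 h (0.00451), and the difference of -0.58 ± 0.12 did not pass (0.186). Genes lower on every 6 h array than on every 1 h array made up 4.75% of features.

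Of 7 serine protease inhibitors measured of 15 listed, 1 fell at 6 h, and 1 rose and 1 fell at 1 h. Serpinb2, an inhibitor of plasminogen activators, had log2 ratios of -1.22, -2.17, -0.91 and -1.22 on the 6 h arrays, against -0.62, -0.82, -0.35 and -0.96 on the 1 h arrays. All 8 arrays were below 0, and it fell at 6 h (-1.38 ± 0.18, SE, n = 4, limma adjusted p = 0.00224) and at 1 h (-0.69 ± 0.18, 0.0139; 0.0622 without replicate 4). Spint1, the inhibitor that restrains matriptase, rose at 1 h (0.32 ± 0.08, limma adjusted p = 0.015; 0.0544 without replicate 3) and had 0.09 ± 0.08 at 6 h (0.47). Epcam, an adhesion molecule that matriptase cleaves, rose at 1 h (0.53 ± 0.09, limma adjusted p = 0.0033) and had 0.20 ± 0.09 at 6 h (0.155). It was 1 of 3 matriptase and prostasin substrates measured of 5 listed. At 6 h Epcam passed with arrays scaled to one spread (0.25, limma adjusted p = 0.0171), after quantile normalization (0.0184), with array weights (0.0323) and by SAM (0.034). In those settings 33.2%, 32.2%, 26.8% and 35% of all features passed at 6 h, against 17.8% in the main fit.

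Of 14 measured regulators of the channel at the cell surface and steroid receptors, of 18 listed, 4 rose and 10 did not pass at 6 h, and 3 rose and 11 did not pass at 1 h. Sgk1, the aldosterone-induced kinase that restrains ubiquitination of the channel, had log2 ratios of 2.65, 2.00, 1.53 and 1.46 on the 6 h arrays, against 1.65, 1.38, -0.64 and -0.16 on the 1 h arrays. Tsc22d3, which encodes GILZ, a leucine zipper protein that acts with Sgk1 on the channel, had 1.15, 1.15, 1.59 and 1.19 on the 6 h arrays, against 1.01, 0.88, -0.60 and -0.15 on the 1 h arrays. Both were high on all 6 h arrays, while on the 1 h arrays they were high in replicates 1 and 2 and below 0 in replicates 3 and 4.

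Sgk1 rose at 6 h (1.91 ± 0.35, SE, n = 4, limma adjusted p = 0.00794) and did not pass at 1 h (0.56 ± 0.35, 0.227), and Tsc22d3 rose at 6 h (1.27 ± 0.23, 0.00778) and did not pass at 1 h (0.29 ± 0.23, 0.344). Scnn1a was above 0 on all 4 of the 1 h arrays, 0.12 and 0.55 on those where Sgk1 and Tsc22d3 were below 0. What sets these 1 h arrays apart was not tested. Usp2, a deubiquitinase that acts on the channel, rose at 6 h (1.04 ± 0.15, SE, n = 4, limma adjusted p = 0.0033) with arrays at 1.45, 0.87, 0.89 and 0.97, against 0.46, 0.92, -0.01 and 0.06 at 1 h (0.36 ± 0.15, 0.0832).

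Nedd4, a ubiquitin ligase, rose at both times, by 0.36 ± 0.11 at 6 h (SE, n = 4, limma adjusted p = 0.0476) and 0.57 ± 0.11 at 1 h (0.00453). The 6 h call was lost without replicate 2, 3 or 4 (limma adjusted p 0.108 to 0.181). Nedd4l, the ligase best known to remove the channel from the membrane, had 0.05 at 6 h and 0.28 at 1 h and passed at neither. The 14-3-3 genes Ywhae and Ywhab, whose proteins bind phosphorylated Nedd4l, rose at 1 h (0.47 ± 0.08 and 0.26 ± 0.09, SE, n = 4, limma adjusted p = 0.00234 and 0.0428). At 6 h they had 0.24 ± 0.08 (0.0518) and 0.23 ± 0.09 (0.0987). The Ywhab call was lost without 1 h replicate 1, 3 or 4 (limma adjusted p 0.057 to 0.176).

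Of the genes tied to chromatin at Scnn1a, where the methyltransferase Dot1l and its partner Mllt3 (Af9) are known to hold the gene down in the absence of aldosterone, 3 of 4 were measured, of which 1 fell at 6 h and 1 at 1 h. Mllt10 (Af10), another partner of Dot1l, had log2 ratios of -0.86, -1.49, -0.62 and -0.67 on the 6 h arrays, against 0.22, 0.01, 0.19 and -0.46 on the 1 h arrays. Every 6 h array was below every 1 h array, as for 4.75% of features. Mllt10 fell at 6 h (-0.91 ± 0.15, SE, n = 4, limma adjusted p = 0.00554) and had -0.01 ± 0.15 at 1 h (0.963), and the difference of -0.90 ± 0.21 did not pass (0.188). Mllt3, averaged over 2 probes, fell at 1 h (-0.34 ± 0.09, limma adjusted p = 0.0178) and had -0.27 ± 0.09 at 6 h (0.0703), with the 1 h call lost without replicate 1, 2 or 4 (0.0532 to 0.059).

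**Figure D4:**
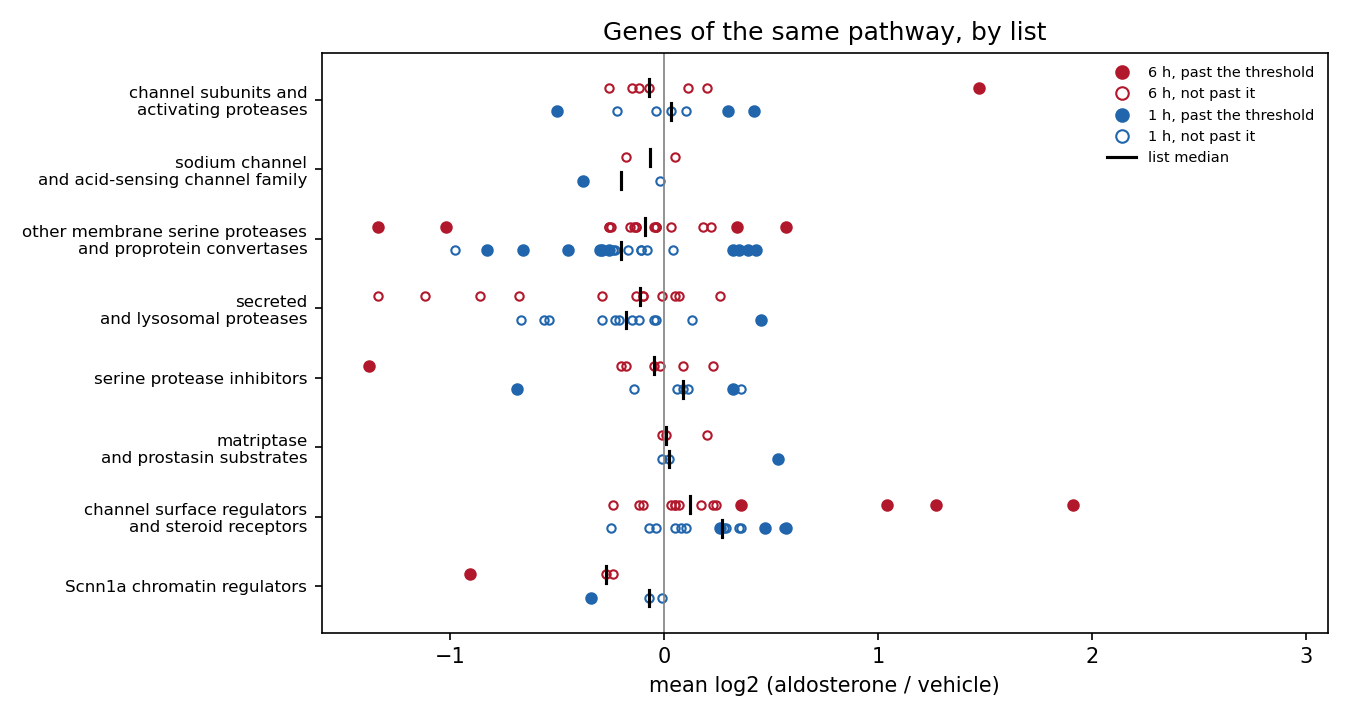
Mean log2 ratio at 6 h and at 1 h of the 7 members and of every measured gene in the 7 network lists, filled where past the threshold, with list medians as bars. Past the threshold at 6 h, Sgk1 (1.91), Scnn1a (1.47) and Tsc22d3 (1.27) lie farthest above 0, and Serpinb2 (-1.38) and Tmprss11d (-1.34) farthest below it.

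Markers of cell types were counted in the same way. Of all features 17.8% passed at 6 h and 41% at 1 h, so the small counts below are no result about a cell type. Of 7 principal cell markers measured of 8 listed, 1 fell at 6 h and 2 fell at 1 h. Elf5, a transcription factor of principal cells, fell at both times (-1.40 ± 0.18 at 6 h and -1.12 ± 0.18 at 1 h, SE, n = 4, limma adjusted p = 0.00224 and 0.00226), and the water channel gene Aqp4 fell at 1 h (-0.44 ± 0.13, 0.0223; 0.0869 without replicate 3 and 0.0966 without replicate 4). Aqp2, the vasopressin-regulated water channel, had -0.04 ± 0.09 at 6 h and 0.12 ± 0.09 at 1 h and did not pass.

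Of 6 intercalated cell markers measured of 8, 1 rose and 1 fell at 6 h, and 1 rose and 3 fell at 1 h. Car2, a carbonic anhydrase, was the one that rose (0.29 at 6 h and 0.24 at 1 h, limma adjusted p = 0.0302 and 0.0328), and Foxi1, a transcription factor of these cells, fell at both times (-0.32 at 6 h and -0.38 at 1 h, 0.039 and 0.0108). Rhcg, an ammonia transporter, and Atp6v1b1, a proton pump subunit, fell at 1 h (-0.37 and -0.23, limma adjusted p = 0.0269 and 0.0492). Apart from Foxi1 at 1 h, each of these calls was lost without some single array, with adjusted p up to 0.153.

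Of 7 markers of other nephron segments measured of 8, 0 passed at 6 h in limma (0 also at an unadjusted p under 0.05, while SAM called Slc12a1 at 0.0411 and 35% of all features), and Slc12a1, the cotransporter of the thick ascending limb, rose at 1 h (0.44, limma adjusted p = 0.0153). Of 7 stromal, endothelial and blood cell markers measured of 9, Ptprc fell at 6 h (-0.40, limma adjusted p = 0.0313), and Col1a1, Pecam1 and Kdr fell at 1 h (-0.65, -0.48 and -0.19, adjusted p = 0.00231, 0.0256 and 0.0324). The calls of Ptprc, Pecam1 and Kdr were each lost without some single array. The samples were of a collecting duct line and the ratios hold no level, so whether these marker genes were expressed could not be checked. The part of these markers in the members' ratios was not tested.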

How the data were processed

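Total RNA of mpkCCDc14 cells was compared on 8 arrays of 2 colours. Each deposited value is a log2 ratio (Cy5 over Cy3) that the authors normalized with Bioconductor, per the labels. How spots were background-corrected and normalized is not stated in these sources. Scanner intensities were not used here. Of 16361 probes, 13768 had 1 symbol in the platform annotation, 13 several and 2580 none. Features needed values on 3 of 4 arrays per time. Probes of one symbol were averaged (938 genes), leaving 12535 genes and 2543 unnamed probes.

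All 8 arrays entered one limma 3.58.1 fit (R 4.3.3) with a coefficient for each time (6 residual and 3.73 prior degrees of freedom). Both means and their difference were tested two-sided, with Benjamini-Hochberg adjustment over 15078 features and a threshold of 0.05. The fit was tested on simulated data. Subunit differences within arrays were tested with an exact permutation test. Members and lists were chosen with earlier results of these data known. Named were all members, up to 6 called genes of each list by smallest p, and the 3 genes most like each member by Pearson's r. Nedd4l, Aqp2, neighbours of channel genes and genes behind counts of 5 or fewer were named after their values were seen. Alternatives were other scalings, filters, moderation, array weights, each time alone, SAM at a false discovery rate of 5% and leaving out each array. Promoters are RefSeq's, GRCm38.p6, and 4 of 7 members matched. Figures were drawn with matplotlib 3.10.9.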

Additional observations from a re-analysis of the deposited data

Results flagged for a closer look

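Of 94 groups of 4 arrays (47 genes at each time), 5 held an array whose gap to its nearest neighbour exceeded Dixon's 95% limit as a share of the group's range, where chance gives about 1 in 20. Replicate 3 at 6 h stood above the other arrays for Tsc22d3, at 1.59. Replicate 4 at 1 h, the array with the widest spread of ratios, stood apart for Furin, at 0.39, for Epcam, at 0.90, for Atp6v1b1, at -0.55, and for Asic2, at -0.23, the least negative of its arrays. The difference between subunits itself differed between times: Scnn1a minus Scnn1b was 1.23 higher at 6 h than at 1 h, and Scnn1a minus Scnn1g was 0.81 higher (exact permutation test, adjusted p = 0.0429 each). Both pairs hold Scnn1a, whose own arrays did not overlap between times, so they are not separate results. The 4 features that passed limma's test of 6 h minus 1 h over the whole array were Sult1d1 (2.46), Fkbp5 (1.57) and Ccr7 (1.22), higher at 6 h, and Cxcl5 (-1.26), lower at 6 h. Each of the 4 lost the call without some single array.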

How the results depend on the processing

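Across all settings 0 member values that passed reversed. Leaving out arrays, 28 of 28 member values at 6 h kept their side of the threshold, 26 of 28 at 1 h and 56 of 56 for the difference. In the other settings 65 of 70 did so at 6 h, 67 of 70 at 1 h and 61 of 63 for the difference, which fitting each time alone cannot give. Against 3 members called at 1 h, 2 were called with arrays scaled to one spread, after quantile normalization and without 1 h replicate 1, and 4 by SAM and without 1 h replicate 2. Of all features 41% were called at 1 h, against 36.2% with one spread, 38.7% by quantile normalization and 33.2% without 1 h replicate 1. The share was 54.1% by SAM and 34.6% without 1 h replicate 2, so these member counts are no result about the members. Against 1 member called at 6 h, 2 were called with arrays scaled to one spread, after quantile normalization and with array weights, St14 being added, and 3 by SAM, with St14 (adjusted p = 0.0341) and Scnn1g (0.0353). In those settings 33.2%, 32.2%, 26.8% and 35% of all features were called at 6 h, against 17.8% in the main fit. Against 0 for 6 h minus 1 h, 1 was called with array weights and 1 by SAM, in each case Scnn1a. Those settings called 0.0531% and 0.822% of all features for this difference. After quantile normalization the subunit differences were 1.39 for Scnn1a minus Scnn1b and 0.92 for Scnn1a minus Scnn1g (adjusted p = 0.0857 each, exact permutation test). Leaving out arrays they ranged from 1.08 to 1.35 and from 0.73 to 0.94, and Scnn1b minus Scnn1g ranged from -0.60 to -0.30. For both pairs with Scnn1a the adjusted p was 0.0857 whenever a 6 h array was left out (exact permutation test over fewer than 70 splits). Over all features, 2685 calls at 6 h became 5001 with one spread, 4857 by quantile normalization, 4042 with array weights, 5276 by SAM and 1099 to 1746 with an array left out. The 4 calls for the difference became 9, 12, 8 and 124 in those 4 settings and 0 to 5 with an array left out, and 2 with no filter on missing values. Over the network, 6 rises and 4 falls at 6 h became 13 and 10 with one spread, 13 and 11 by quantile normalization, 10 and 10 with array weights, 14 and 12 by SAM, and 3 and 2 without 6 h replicate 3. At 1 h, 10 rises and 9 falls became 6 and 4 without replicate 4, and the falls 17 by SAM. Of all features 28.7% were called at 1 h without replicate 4 and 54.1% by SAM. No paired analysis was possible because the labels do not match the 1 h arrays with the 6 h arrays. The precision is limited by 4 arrays per time, 1 probe per member and an unknown signal over background.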

Other observations

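Genes beside the channel genes were read after the members' values were seen. Of Scnn1a's nearest measured neighbours, Ltbr, the lymphotoxin beta receptor, had a log2 ratio of 0.34 at 6 h (limma adjusted p = 0.0324, lost without 6 h replicate 1, 3 or 4, at 0.0667, 0.112 and 0.139) and 0.44 at 1 h (0.00568). Tnfrsf1a, a tumour necrosis factor receptor on the other side of Scnn1a, had -0.04 at 6 h (limma adjusted p = 0.727) and -0.07 at 1 h (0.428). Usp31, a ubiquitin-specific protease gene next to Scnn1g, fell at 6 h (-0.32, limma adjusted p = 0.00956) and at 1 h (-0.21, 0.0253), where the call was lost without replicate 1 (0.0873) or 3 (0.0689).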
